A study of Mus musculus with 2 samples.

Results

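Transcripts of the EGF receptor family and of genes that dampen its signal were measured in sorted nuclei of the mouse thick ascending limb (TAL). The 8 genes are the receptors Egfr, Erbb2, Erbb3 and Erbb4 and the feedback genes Dusp6, Spry2, Spry4 and Errfi1. They were chosen by name, with earlier results of these data known, and each has 1 row among the 32227 genes of the count matrices. The nuclei came from male B6 mice, labelled WT, of age 12 with no unit given, that carried an Slc12a1-CreERT2 driver and a CAG-Sun1/sfGFP reporter. CreERT2 follows the promoter of Slc12a1, which encodes the cotransporter NKCC2 of the TAL and macula densa (MD), and nuclei were sorted for the tag, with no untagged control. The mice were given tamoxifen at 1 mg per day for 5 days, with a 10-day induction. A strip of about 20% of tissue depth at the surface gave the cortex library and the remaining tissue, deep cortex included, gave the medulla library. There was 1 library per region, the number of mice behind each is not given in the sources used here, and region and library cannot be told apart. No p-value is therefore given, and intervals cover counting error only.

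EGF family ligands are made as membrane proteins and cut loose by ADAM proteases. They bind EGFR, ERBB3 or ERBB4, which pair with each other or with ERBB2 and switch on RAS, RAF, MEK and ERK. ERK then induces its own inhibitors: DUSP6 removes phosphate from ERK, Sprouty proteins such as SPRY2 and SPRY4 act upstream of RAF, and ERRFI1 (MIG6) binds and silences the receptor kinase. In the kidney, the TAL reabsorbs salt without water and is known as a large source of EGF, and the MD, a plaque of cells at its end, senses salt and signals to the glomerulus.

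Nuclei were classed from raw counts, in a fixed order, among barcodes with at least 10 Slc12a1 counts. These were 5218 of 5442 called barcodes in cortex and 7967 of 8121 in medulla. At least 3 counts of Nos1 plus Pappa2 gave MD, else at least 2 of Tmem52b gave TAL-β, else at least 2 of Tmem207 plus Gpc5 gave TAL-γ, and the remainder was TAL-α. Cortex held 2824 TAL-α, 1493 TAL-β, 248 TAL-γ and 653 MD nuclei, and medulla held 3776, 571, 3542 and 78. The median count per nucleus was 2425 and 2404 in TAL-α, 2668 and 2780 in TAL-β, 2602 and 2406 in TAL-γ, and 1883 and 1995.5 in MD of cortex and medulla. No barcode was shared between the libraries. Levels are given as CPM, the summed counts of a gene in a class scaled to a class total of 1000000, with exact Poisson 95% intervals. Ratios carry conditional binomial 95% intervals.

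The class names were checked against markers that the rule did not use. In medulla, TAL-β nuclei had 250 CPM of Cldn16 and 55.8 of Cldn10. Medullary TAL-γ nuclei had 55.0 of Cldn16 and 211 of Cldn10 with 109 of Kcnj10. Medullary TAL-α nuclei had 60.2, 242 and 13.2 of these genes, so Kcnj10 and not the claudins set TAL-γ apart from TAL-α. Kcnj10 was higher still in medullary TAL-β, at 170 CPM. Of the rule genes, Tmem207 also had a count in 71.1% of medullary TAL-β nuclei. The split was narrower in cortex, with 188 CPM of Cldn16 and 116 of Cldn10 in TAL-β, and 101 and 216 in TAL-α. Cortical TAL-γ nuclei had 153 CPM of Cldn16 beside 156 of Cldn10, so this class does not carry the claudin pattern of its medullary namesake and is given by value only. MD nuclei held 4789 CPM of Robo2 in cortex and 5795 in medulla, against 475 and 67.1 in TAL-α. In cortex 94 barcodes were just inside the MD limit and 133 had 1 count less and were classed elsewhere.

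The libraries differ in transcripts of other cells. At least 4 counts of 1 of 8 marker lists for other cell types (proximal and distal convoluted tubule, principal, intercalated, endothelial, stromal, podocyte and immune cells) were found in 15.3% of cortical TAL-α, 24.5% of TAL-β, 24.6% of TAL-γ and 8.88% of MD nuclei, against 2.01%, 4.55%, 2.48% and 1.28% in medulla. The proximal tubule list alone marked 370 of the 433 such cortical TAL-α nuclei and 271 of the 366 TAL-β nuclei. Its 7 genes, all with counts in every class, summed to 1710 to 3264 CPM in the cortical classes and 364 to 572 CPM in the medullary ones. Values are therefore also given without these barcodes, called the cleaned nuclei below.

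The stretches just before an annotated first exon of Egfr and Dusp6 are shown because these genes lay on opposite sides of TAL-α in cortical MD nuclei. They come from the RefSeq promoter table (GRCm38.p6) and matched GRCm39 once each, on the plus strand, at chr11:16701953-16702197 and chr10:99098843-99099067. In GENCODE M39 the Egfr stretch ends at the start of the gene (chr11:16702198-16868158, plus strand). That of Dusp6 (chr10:99086564-99103361, plus strand) ends at the first exon of most transcripts and lies in an intron of a longer one. Capitals mark CCGGAA (or TTCCGG on the other strand), a form of the ETS motif that ETS factors such as ETV4 and ETV5 favour. Shorter forms were not marked.
Egfr: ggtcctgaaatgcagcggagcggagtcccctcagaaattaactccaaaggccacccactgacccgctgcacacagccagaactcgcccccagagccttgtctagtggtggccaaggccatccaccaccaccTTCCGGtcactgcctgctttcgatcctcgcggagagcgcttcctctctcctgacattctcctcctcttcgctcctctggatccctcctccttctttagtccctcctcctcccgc
Dusp6: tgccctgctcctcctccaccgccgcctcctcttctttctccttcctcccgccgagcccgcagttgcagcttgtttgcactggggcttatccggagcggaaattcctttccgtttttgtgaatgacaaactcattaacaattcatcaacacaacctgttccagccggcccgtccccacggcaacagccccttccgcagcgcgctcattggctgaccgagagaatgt
The Egfr stretch held 1 ETS core, 114 bases before the exon, and that of Dusp6 held none. Of 32851 upstream windows of 250 bases in the table, 12.0% held CCGGAA or TTCCGG, so a match is a description of the letters and not of a site.

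Among the 8 genes, Egfr was lowest and Erbb3 highest in MD nuclei of both libraries, Dusp6 and Spry2 were higher in TAL-β than in TAL-α of both, and Erbb2 and Erbb4 stayed within 1.5-fold of TAL-α in every class compared. Spry4 was too sparse to compare. Members at or beyond 1.5-fold, among those with at least 50 counts over both classes, were read against the share of all such genes that did the same. For TAL-β against TAL-α it was 2 of 7 members in cortex (Dusp6 and Spry2), where 9.59% of 12244 genes did so, and 3 of 7 in medulla (with Errfi1), where 14.9% of 11129 did. None of 7 did in TAL-γ against TAL-α, with 7.79% of 12347. For MD against TAL-α it was 4 of 7 in cortex (Egfr lower, Erbb3, Dusp6 and Spry2 higher) with 24.3% of 11465. In medulla it was 4 of 6 (Egfr lower, Erbb3, Spry2 and Errfi1 higher) with 48% of 10042. The medullary intervals of Spry2 (0.41 to 3.97) and Errfi1 (0.92 to 2.66) include 1. In cortex Dusp6 reached the 50 counts with 20 in MD and 34 in TAL-α. A gene can reach that limit through the class where it is high, so the cortical MD tally is a description only. Medulla against cortex gave 2 of 7 in TAL-α (Dusp6 higher, Errfi1 lower) with 21.3% of 12585, 1 of 7 in TAL-β (Errfi1 lower) with 19.8% of 10489, and 2 of 5 in MD (Egfr and Errfi1 lower) with 27% of 6272. The members' median log2 ratio was 0.38 and 0.36 for TAL-β in cortex and medulla, 0.12 for TAL-γ, −0.13 and 0.35 for MD, and 0.03, 0.15 and 0.25 for the regions. Over all genes these medians lay between −0.07 and 0.05. The members, and the pathway lists below, were chosen with earlier results of these data known. All tallies and medians of them are therefore descriptions only.

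Erbb4, a receptor for neuregulins and for some EGF-type ligands, was by far the highest of the receptors. The gene spans 1076 kb (GRCm39 chr1:68071345-69147619, minus strand). Its level was 10188 CPM (10118 to 10258) in cortical and 12047 (11977 to 12118) in medullary TAL-α. Between 99.96% and 100% of the nuclei of every class had at least 1 count. Barcodes not called as nuclei, which carry free RNA, held 9093 CPM in cortex and 10421 in medulla. Levels were also set per kb of gene span, though whether counts grow with span was not tested. On that scale Erbb4 stood at 9.47 and 11.2 CPM in cortical and medullary TAL-α. The values were 1.03 and 0.863 for Egfr, 1.53 and 1.56 for Erbb2 and 1.02 and 0.804 for Erbb3.

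Across classes Erbb4 varied little and, as classed here, was highest in TAL-α. It was 7737 CPM in cortical and 10130 in medullary TAL-β, 0.76 (0.75 to 0.77) and 0.84 (0.83 to 0.85) times TAL-α. In medullary TAL-γ it was 10631 CPM, 0.88 (0.87 to 0.89) times TAL-α. MD nuclei had 8517 CPM in cortex and 10432 in medulla, 0.84 (0.82 to 0.85) and 0.87 (0.83 to 0.91) times TAL-α. No class passed the 1.5-fold mark. Over all alternatives the cortical ratio to TAL-α ranged from 0.73 to 1.01 in TAL-β and from 0.79 to 1.00 in MD. The order in cortex thus did not hold under every setting. In medulla the highest ratios to TAL-α were 0.91 in TAL-β, 0.93 in TAL-γ and 0.93 in MD. The higher Erbb4 in medullary than cortical TAL-α, 1.18-fold (1.17 to 1.19), was 1.02-fold (1.01 to 1.03) in the cleaned nuclei.

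Egfr, the receptor for EGF itself and the target of ERRFI1, was the receptor that differed most among classes. In all nuclei its level in cortex was 171 CPM (162 to 180) in TAL-α, 221 (209 to 235) in TAL-β, 236 (204 to 272) in TAL-γ and 104 (89.4 to 121) in MD. In medulla it was 143 (136 to 151), 184 (165 to 206), 195 (186 to 205) and 54.2 (24.8 to 103) CPM. Both libraries thus put MD lowest and TAL-α next. TAL-β and TAL-γ neighbour each other in this order, and in medulla their ratio was 1.06 (0.94 to 1.20, γ over β), within counting error.

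**Figure D1:**
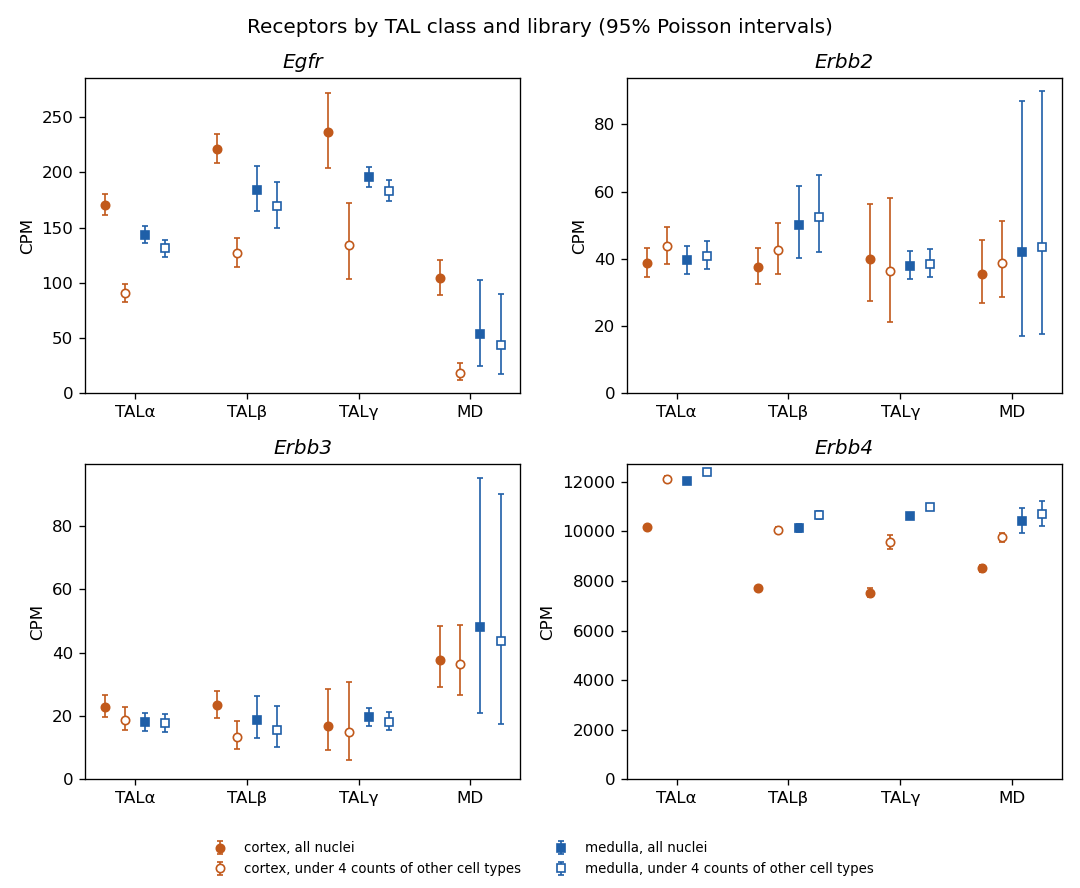
CPM of Egfr, Erbb2, Erbb3 and Erbb4 (linear axes from 0, own scale in each panel) in TAL-α, TAL-β, TAL-γ and MD nuclei of the cortex (circles) and medulla (squares) libraries; bars are 95% Poisson intervals, and open symbols leave out barcodes with at least 4 counts of any other cell type's list. Egfr is lowest in MD under both, at 18.6 CPM in the cleaned cortical MD nuclei, and Erbb3 is highest in MD.

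In cleaned nuclei the MD deficit of Egfr was deeper. Cortical MD nuclei held 23 Egfr counts in 595 nuclei, 18.6 CPM (11.8 to 27.8), against 90.7 (83.1 to 98.9) in cleaned TAL-α, a ratio of 0.20 (0.13 to 0.31). With all nuclei the ratio was 0.61 (0.52 to 0.72). In medulla the ratios were 0.38 (0.17 to 0.72) from 9 MD counts and 0.33 (0.13 to 0.69) from 7. Barcodes not called as nuclei held 139 CPM of Egfr in cortex and 144 in medulla. In cortex this lies above MD and also above cleaned TAL-α (90.7), TAL-β (127) and TAL-γ (134). In medulla it lies above cleaned MD (43.7) and TAL-α (131) and below cleaned TAL-β (169) and TAL-γ (183). The part of free RNA in these Egfr levels was not tested. After each nucleus was thinned to 1000 counts, 3.37% (2.12 to 5.06, exact binomial) of all cortical MD nuclei had an Egfr count. The share was 11.1% (9.95 to 12.3) of all cortical TAL-α nuclei. Unthinned shares of all nuclei were 9.34% and 22.5%. Among the cleaned and thinned nuclei, 11 of 595 MD and 187 of 2391 TAL-α nuclei of cortex had an Egfr count. No cell type known to lack Egfr was among the classes, so no background share is given.

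TAL-β nuclei had 1.30 times the Egfr of TAL-α in cortex (1.20 to 1.40) and 1.29 times in medulla (1.14 to 1.45). The cleaned nuclei gave 1.40 (1.22 to 1.61) and 1.29 (1.13 to 1.48). TAL-γ nuclei of medulla had 1.36 times TAL-α (1.27 to 1.46), and 1.40 (1.30 to 1.51) when cleaned. These are steps below 1.5-fold. The TAL-β step depended on how nuclei were classed. Classing on thinned counts left 690 cortical TAL-β nuclei instead of 1493, and 3897 TAL-α nuclei instead of 2824. In medulla it left 201 TAL-β nuclei instead of 571, and 5107 TAL-α nuclei instead of 3776. Ratios under that setting thus compare other sets of nuclei. With classes set on counts thinned to 1000 per nucleus, the cortical ratio turned to 0.75 (0.66 to 0.85), and with the cleaning added it was 1.18 (0.99 to 1.40). In medulla the same settings gave 1.00 (0.80 to 1.24) and 1.14 (0.91 to 1.41). The TAL-γ ratio was 1.20 (1.11 to 1.28) and 1.28 (1.19 to 1.38).

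Between regions, the direction for Egfr turned when the nuclei were cleaned. Medullary TAL-α had 0.84 (0.78 to 0.91) times cortical TAL-α in all nuclei and 1.45 (1.30 to 1.61) times in the cleaned ones. For TAL-β the values were 0.83 (0.73 to 0.94) and 1.33 (1.13 to 1.56). In MD nuclei the ratio was 0.52 (0.23 to 1.01) and then 2.35 (0.85 to 5.66), the latter from 7 medullary counts.

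Erbb2 (chr11:98303203-98328542, plus strand), the family member that binds no known ligand and serves as a partner, was even across classes. Its level was 38.7 CPM (34.5 to 43.2) in cortical and 39.6 (35.6 to 43.8) in medullary TAL-α, and the 8 classes lay between 35.4 and 50.1. The highest, medullary TAL-β, was 1.27 times TAL-α (0.99 to 1.60). Erbb2 passed 1.5-fold in none of the 8 comparisons as classed here. With classes set on thinned counts, medullary TAL-β passed it against TAL-α (1.64, 1.14 to 2.30) and against cortical TAL-β (1.83, 1.18 to 2.79).

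Erbb3 (chr10:128403392-128425811, minus strand), a neuregulin receptor with a weak kinase of its own, was highest in MD nuclei. Cortex gave 23.0 CPM (19.8 to 26.6) in TAL-α, 23.3 (19.4 to 27.9) in TAL-β, 17.0 (9.28 to 28.5) in TAL-γ and 37.8 (29.0 to 48.3) in MD. Medulla gave 18.0 (15.4 to 21.0), 18.8 (12.9 to 26.4), 19.5 (16.8 to 22.6) and 48.2 (20.8 to 94.9) CPM. The 3 other classes could not be ordered within their intervals as classed here. With classes set on thinned counts, Erbb3 in cortical TAL-β lay beyond 1.5-fold below TAL-α. Over all alternatives that ratio ranged from 0.52 to 1.05 in cortex and from 0.88 to 1.10 in medulla. MD nuclei had 1.64 times TAL-α in cortex (1.21 to 2.20) and 2.67 times in medulla (1.14 to 5.39, from 8 MD counts), and 1.92 (1.33 to 2.75) and 2.47 (0.98 to 5.21) when cleaned. Nuclei with at least 20 counts of the proximal tubule list also held more Erbb3 than those with none, 38.6 against 19.2 CPM in cortex and 37.4 against 18.2 in medulla, and its part in the MD level was not tested. The list summed to 1710 CPM in MD and 2368 in TAL-α of cortex, and to 530 and 389 in medulla. Erbb3 in barcodes not called as nuclei was 31.2 CPM (25.7 to 37.5) in cortex and 25.4 (19.7 to 32.3) in medulla. These levels lie between those of the TAL classes and MD, and the part of free RNA was not tested.

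Dusp6, the ERK phosphatase, was low throughout, and cortical TAL-α was the lowest class with a count. Cortex held 4.27 CPM (2.96 to 5.96) in TAL-α, 10.9 (8.26 to 14.1) in TAL-β, 8.48 (3.41 to 17.5, 7 counts) in TAL-γ and 12.0 (7.33 to 18.5) in MD. Medulla held 9.49 (7.62 to 11.7) in TAL-α, 15.9 (10.6 to 23.0) in TAL-β and 12.7 (10.5 to 15.2) in TAL-γ. The 78 medullary MD nuclei had no Dusp6 count (0 to 22.2 CPM). The floor of 3 counts stands at 18.1 CPM there, above TAL-α, so no fold is given. TAL-β exceeded TAL-α 2.55-fold in cortex (1.64 to 4.03) and 1.68-fold in medulla (1.06 to 2.59), and cortical MD exceeded it 2.81-fold (1.53 to 5.02). The cleaned nuclei gave 2.90 (1.70 to 5.03), 1.73 (1.07 to 2.71) and 3.51 (1.83 to 6.63). Dusp6 was also the 1 member past 1.5-fold upward between regions, 2.22-fold higher in medullary than cortical TAL-α (1.48 to 3.41) and 2.15-fold (1.36 to 3.51) when cleaned. Barcodes not called as nuclei held 14.0 and 15.2 CPM, a level like that of the higher classes.

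Spry2 (chr14:106128766-106136446, minus strand) was also higher in TAL-β than in TAL-α. Its level was 11.7 CPM (9.42 to 14.3) in cortical TAL-α, 22.6 (18.7 to 27.0) in TAL-β, 15.8 (8.39 to 26.9) in TAL-γ and 18.0 (12.1 to 25.7) in MD. Medulla had 15.9 (13.4 to 18.7), 25.0 (18.2 to 33.6), 19.4 (16.7 to 22.5) and 24.1 (6.56 to 61.7, 4 counts) CPM. TAL-β exceeded TAL-α 1.93-fold in cortex (1.46 to 2.56) and 1.58-fold in medulla (1.10 to 2.22), and the cleaned nuclei gave 2.18 (1.57 to 3.04) and 1.66 (1.15 to 2.34). For cortical MD against TAL-α the ratio was 1.54 (0.99 to 2.35), with 1 inside the interval, and 1.73 (1.07 to 2.73) when cleaned. Barcodes not called as nuclei held 15.6 CPM of Spry2 (11.8 to 20.2) in cortex and 22.8 (17.4 to 29.3) in medulla. These levels lie between TAL-α and TAL-β of the same library, and the part of free RNA was not tested. Spry4 had 21 counts in all 8 classes together and was compared in no class.

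**Figure D2:**
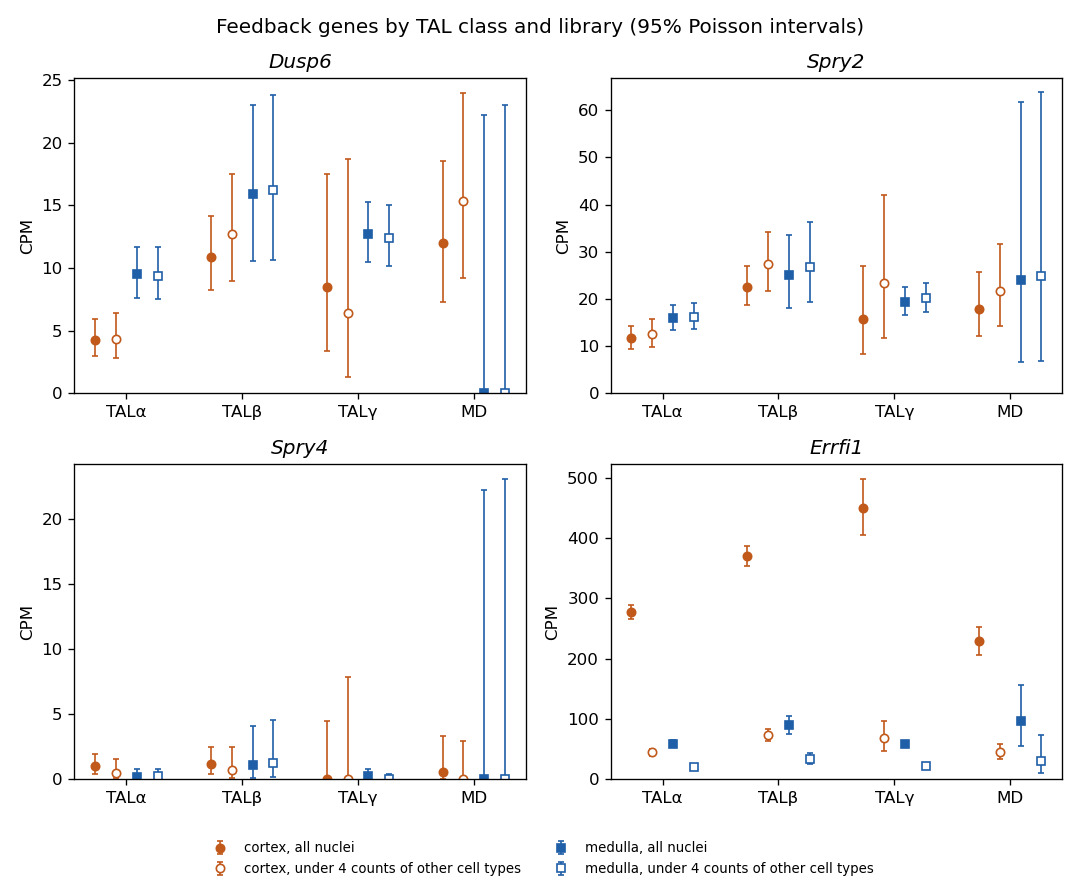
CPM of Dusp6, Spry2, Spry4 and Errfi1 (linear axes from 0, own scale in each panel) by class and library, drawn as in the plot of receptors, with 95% Poisson intervals. Dusp6 and Spry2 are higher in TAL-β than in TAL-α of the same library, whereas Errfi1 in cortical TAL-α is 278 CPM in all nuclei and 44.7 CPM once barcodes with other cells' transcripts are left out.

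Errfi1 (chr4:150938376-150955402, plus strand) had a wide spread among classes, and its level moved with proximal tubule transcripts. In all nuclei cortex held 278 CPM (266 to 290) in TAL-α, 370 (353 to 387) in TAL-β, 450 (405 to 498) in TAL-γ and 229 (207 to 253) in MD. Medulla held 59.4 (54.6 to 64.5), 89.4 (75.9 to 104), 58.3 (53.4 to 63.5) and 96.4 (55.1 to 157). Cleaned nuclei had 44.7 (39.4 to 50.6), 73.4 (63.9 to 83.9), 68.2 (46.7 to 96.3) and 45.2 (34.1 to 58.7) CPM in cortex and 21.1 (18.1 to 24.3), 33.1 (24.8 to 43.4), 22.1 (19 to 25.4) and 31.2 (10.1 to 72.8) in medulla. Sorted by proximal tubule counts, cortical nuclei with none held 53.0 CPM of Errfi1, those with 1 to 3 held 58.1, those with 4 to 19 held 259 and those with at least 20 held 1005. The medullary values were 23.0, 17.6, 233 and 888. The 224 cortical barcodes under the Slc12a1 limit held 960 CPM.

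Egfr was 89.4 CPM without proximal tubule counts and 422 with at least 20 in cortex, and 157 and 440 in medulla. Erbb4 went the other way, with 11004 and 4372 CPM in cortex and 11604 and 4426 in medulla. The nuclei with at least 20 such counts were deep, with a median of 5997 counts in cortex and 7165 in medulla, against 2266 and 2406 in those with none. Depth and proximal tubule counts thus moved with the levels of Errfi1 and Egfr, and their part in them was not tested.

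**Figure D3:**
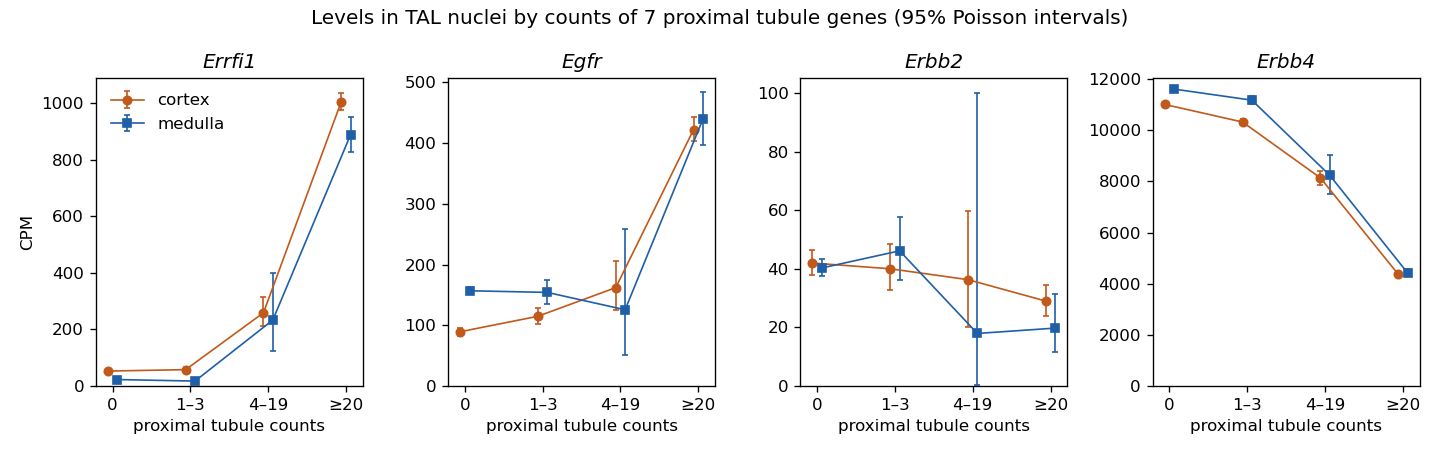
CPM (linear axes from 0) of Errfi1, Egfr, Erbb2 and Erbb4 in TAL and MD nuclei grouped by their summed counts of 7 proximal tubule genes, for cortex (circles) and medulla (squares), with 95% Poisson intervals. Errfi1 and Egfr are highest, and Erbb4 lowest, in nuclei with at least 20 proximal tubule counts.

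What remained for Errfi1 after cleaning was a step between regions and a step to TAL-β. Medulla had 0.47 (0.39 to 0.57) times cortex in TAL-α and 0.45 (0.33 to 0.61) in TAL-β, compared with 0.21 (0.19 to 0.23) and 0.24 (0.20 to 0.28) in all nuclei. TAL-β had 1.64 times TAL-α in cortex (1.36 to 1.97) and 1.57 times in medulla (1.14 to 2.15) when cleaned, and 1.33 (1.25 to 1.41) and 1.5 (1.25 to 1.80) in all nuclei. With classes set on thinned counts the TAL-β ratio turned to 0.55 in both libraries (0.49 to 0.61 in cortex, 0.34 to 0.84 in medulla), and with the cleaning added it was 1.37 (1.09 to 1.70) and 1.69 (1.00 to 2.70). The ratio of cortical MD to TAL-α was 1.01 (0.74 to 1.35) when cleaned, and 0.22 (0.17 to 0.28) with thinned classes. The thinned classes held 425 cortical MD nuclei instead of 653. They held 690 TAL-β nuclei instead of 1493 in cortex, and 201 instead of 571 in medulla. Errfi1 in barcodes not called as nuclei was 318 CPM in cortex and 91.0 in medulla, above every cleaned class of the same library. The part of free RNA in the steps between regions and to TAL-β was not tested.

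The ligand Egf was abundant and was lowest in MD. Its level in cortex was 11624 CPM in TAL-α, 12202 in TAL-β, 11910 in TAL-γ and 2454 in MD, and in medulla 8513, 14928, 4858 and 440. MD nuclei had 0.21 (0.20 to 0.22) times TAL-α in cortex and 0.05 (0.04 to 0.06) in medulla. Barcodes not called as nuclei held 11153 and 7927 CPM of Egf. In medulla TAL-β exceeded TAL-α 1.75-fold (1.73 to 1.78), while TAL-γ had 0.57 times TAL-α (0.56 to 0.58). Of 11 ligands, 5 could be compared in cortical MD, and 3 of them were lower (Egf, Hbegf at 0.44 and the neuregulin Nrg1 at 0.60) and none higher, where 24.3% of all genes passed (1386 higher and 1405 lower of 11465). Tgfa, chosen after its values were seen because it lies below the 50-count limit, had 25 counts in cortical MD (15.0 CPM, 9.70 to 22.1) and 13 in TAL-α (1.63, 0.869 to 2.79). It encodes another EGFR ligand.

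Several ERK-responsive genes were higher in cortical MD nuclei. Of 10 such genes, 6 had 50 counts over both classes, and 4 of these were higher and 1 lower, with Ier3 at 1.31 (1.20 to 1.44). Over all genes 24.3% passed, 1386 higher and 1405 lower of 11465. A gene can reach 50 counts through the class where it is high, so the tally of the 10 ERK-responsive genes is a description only. The other 4 had 10 and 12 counts (Fos), 4 and 8 (Phlda1), 1 and 1 (Fosl1) and 0 and 3 (Myc) in MD and TAL-α. The ETS factor Etv4 had 42.0 CPM in MD and 2.64 in TAL-α (15.9-fold, 9.66 to 27.3), Etv5 had 63.6 and 8.79 (7.23-fold, 5.30 to 9.93), and Etv1 had 104 and 24.2 (4.28-fold, 3.47 to 5.28). Egr1, an immediate early gene, was 4.78-fold higher (2.81 to 8.12), and the cyclin Ccnd1 was lower at 0.26 (0.17 to 0.38). In cleaned nuclei the ratios were 17.4, 15.0, 20.6, 7.79 and 0.10.

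Of 16 other feedback inhibitors, 15 could be compared, 6 were higher and 1 was lower, beside the 24.3% of all genes that passed. Dusp5 reached the limit on counts with 30 in MD and 25 in TAL-α, and Spry1 with 20 and 31. That limit can be reached through the class where a gene is high, so the tally of these inhibitors is a description only. The ERK phosphatase Dusp5 was 5.73-fold higher (3.26 to 10.2), the phosphatase Dusp4 2.56-fold (1.47 to 4.34), Spred2, a Sprouty relative, 2.43-fold (2.17 to 2.73) and Spred1 1.91-fold (1.53 to 2.38). The receptor inhibitor Lrig1 was 1.61-fold higher (1.16 to 2.21) and Socs5 was at 0.61 (0.52 to 0.71). Spry1, named after its values were seen, was 3.08-fold higher (1.66 to 5.58). The median log2 ratio of the list was 0.41. The 16 genes of the RAS-ERK cascade itself were all measured and none passed 1.5-fold, with a median of 0.13. Among other receptor tyrosine kinases, 4 of 11 were lower in cortical MD (Fgfr2, Fgfr4, Igf1r and Ddr1, between 0.54 and 0.63) and none higher, where 1405 of all 11465 genes were lower. The sheddase Adam12 was 2.24-fold higher (1.49 to 3.32), the 1 of 6 shedding genes past the mark.

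**Figure D4:**
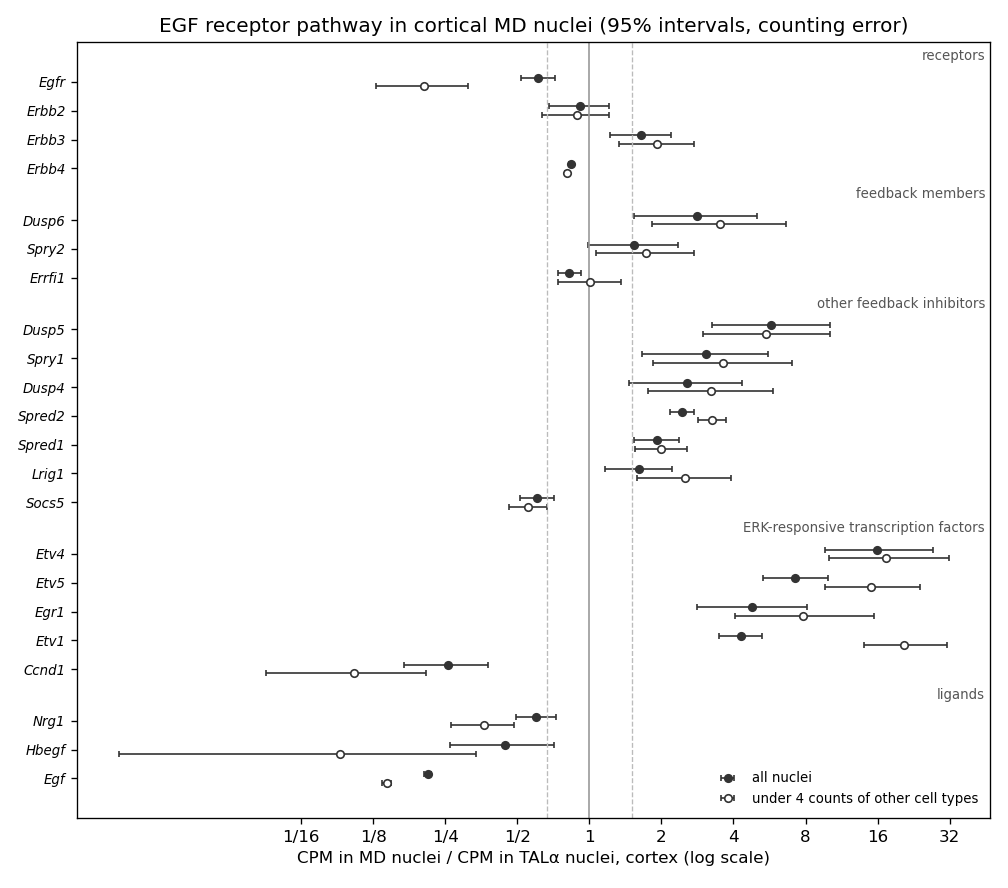
Ratio of CPM in cortical MD to cortical TAL-α nuclei (log axis, dashed lines at 1.5-fold) for the members with at least 50 counts and for the inhibitors, ERK-responsive genes and ligands past 1.5-fold, with 95% intervals for counting error; open symbols leave out barcodes with other cells' transcripts. Egfr and Egf lie left of 1 and Dusp6, Erbb3, Etv4 and Etv5 right of it in both sets.

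Medullary MD rests on 78 nuclei, and 48% of all genes passed 1.5-fold there. Of the other inhibitors, 7 of 12 were higher and 2 lower, of the ERK-responsive genes 1 of 2 was higher (Ier3 at 3.95, 3.03 to 5.08) and 1 lower (Ccnd1), of the ligands 2 of 3 were lower, and of the cascade genes 1 of 16 was higher and 2 lower. The genes higher in cortical MD are given by value, chosen after their values were seen where they had under 50 counts. Etv1 had 20 counts (120 CPM) against 2.99 CPM in TAL-α, Etv5 had 11 (66.3 against 3.41), Dusp5 had 8 (48.2 against 2.67), Dusp4 had 6 (36.1 against 5.65) and Spred2 had 35 (211 against 108). Etv4 had 4 (24.1 against 1.81), Egr1 had 2 (12.0 against 1.07), Spred1 had 15 (90.4 against 41.9) and Spry1 had 1 (6.02 against 1.92). Lrig1, higher in cortical MD, had 2 counts (12.0 against 14.4). Ccnd1 had 4 counts (24.1 against 72.6).

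The same lists were compared between TAL-β and TAL-α, with all nuclei. Other cells' transcripts marked 24.5% of cortical TAL-β nuclei and 15.3% of cortical TAL-α nuclei, and their part in these ratios was not tested. Among the other inhibitors, 3 of 14 were higher and none lower in cortex, and 4 of 13 and none in medulla, where 9.59% and 14.9% of all genes passed. Dusp4 was 2.09-fold higher (1.39 to 3.17) and 2.62-fold (1.57 to 4.26), Spred2 1.51-fold (1.38 to 1.66) and 1.56-fold (1.36 to 1.78), and Lrig3, a receptor-binding relative of Lrig1, 1.52-fold (1.29 to 1.80) and 1.65-fold (1.19 to 2.26). Spred1 passed in medulla at 1.58 (1.27 to 1.94), as did the ligand Hbegf at 1.63 (1.16 to 2.27) and Ier3 at 2.08 (1.84 to 2.35). None of the 16 cascade genes passed in either library. Of the other receptor tyrosine kinases, 1 of 11 was higher and 1 lower in cortex, and 1 of 10 was lower in medulla. Epha4, an ephrin receptor, was at 0.28 (0.23 to 0.34) and 0.24 (0.17 to 0.32). Kdr had 11.9 CPM in cortical TAL-β and 6.03 in cortical TAL-α. The endothelial list summed to 161 and 81.5 CPM in these classes, and its part was not tested. In medullary TAL-γ, 1 of 13 other inhibitors and 1 of 4 ERK-responsive genes were lower. These were Spred3 at 0.47 (0.27 to 0.78) and Ier3, an early response gene, at 0.26 (0.22 to 0.30). Over all genes 7.79% passed there, 311 higher and 651 lower of 12347. In the cascade, Hras was at 0.54 (0.33 to 0.86). Of the other receptor tyrosine kinases, 3 of 10 were lower in medullary TAL-γ and none higher.

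Between regions, 3 of the 4 ERK-responsive genes with 50 counts were lower in medullary TAL-α, with Etv1 at 0.12 (0.08 to 0.18), Etv5 at 0.39 (0.25 to 0.60) and Ier3 at 0.37 (0.34 to 0.40), and Ccnd1 was at 1.11 (0.99 to 1.25). Of all genes 21.3% passed in this comparison, 2080 lower and 603 higher of 12585. Robo2, a marker of MD, moved with them, at 475 CPM in cortical and 67.1 in medullary TAL-α, and its part in these values was not tested. The cleaned values were 0.24 (0.11 to 0.48), 0.59 (0.33 to 1.06) and 0.31 (0.29 to 0.34). With all nuclei, 2 of 14 other inhibitors were lower in medullary TAL-α (Lrig3 at 0.51, 0.42 to 0.62, and Spred3 at 0.43, 0.30 to 0.61). In the same nuclei 1 was higher (Socs5 at 1.60, 1.5 to 1.71). Of the other receptor tyrosine kinases, 5 of 11 were lower in medullary TAL-α and none higher, also with all nuclei. Other cells' transcripts marked 15.3% of cortical and 2.01% of medullary TAL-α nuclei. Their part in these inhibitor and receptor kinase ratios was not tested.

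Over the 8 classes of both libraries, the genes whose log2 CPM followed a member most closely were listed for the 4 members with at least 500 counts and a spread of at least 2-fold. Egfr went with Rpl35 (Pearson r = 0.994), Pcca (0.990) and Glb1l2 (0.987), Erbb3 with Mthfs (0.992), Lmna (0.988) and Chd6 (0.987), and Spry2 with Tceanc2 (0.943), Dcaf8 (0.935) and Ddhd2 (0.893). Errfi1 went with Pdzk1 and Hgd (both 0.999) and Fhl1 (0.998). Pdzk1 and Hgd are genes of the proximal tubule. The 8 points share 2 libraries, with 4 classes from each, and all genes with at least 500 counts were searched.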

How the data were processed

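FANS-sorted Sun1-sfGFP nuclei gave 1 PIPseq library per region (17000 nuclei loaded each), aligned by the authors to GRCm39 and counted with PIPseeker. The deposited matrices hold raw transcript counts, as integers for each gene in each barcode, before the authors' doublet removal, ambient RNA correction and normalization. The submitters' processing notes name bcl2fastq and Seurat 4.4.0. The annotation release behind the counts is not given in the sources used here. Cluster numbers and UMAP coordinates were not used. Called barcodes held 16457300 counts in cortex and 20947211 in medulla, with medians of 2427 and 2430.

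Counts were summed per class and library (Python 3.11.15, numpy 2.4.6, scipy 1.17.1, pandas 2.3.3) and scaled to CPM. Exact Poisson, conditional binomial and Clopper-Pearson 95% intervals cover levels, ratios and shares. With 1 library per region no test across libraries was possible. Genes were compared with at least 50 counts over both classes, and a class at 0 was set to 3 counts. Where that gave no bound, no fold was given. Doublets were kept, and Scrublet scores (scanpy 1.11.5) served an alternative. Nuclei were thinned without replacement to 1000 counts with seed 1, and 18 TAL-α and 5 TAL-γ nuclei of medulla with fewer were left out of thinned shares. The ratio step was tested on simulated data. Spans are those of GENCODE M39, which also lists genes that overlap Egfr, Erbb2, Erbb4, Dusp6, Spry4 and Errfi1, and reads of such pairs may be split. Named were all 8 members, the genes of 6 pathway lists past 1.5-fold (up to 6 per list, by counts), and the 3 genes most like each member with at least 500 counts and a 2-fold spread. The members and lists were chosen with earlier results of these data known. 9 alternatives were planned and 2 were added after the data had been seen.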

Additional observations from a re-analysis of the deposited data

How the results depend on the processing

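The number of members past 1.5-fold stayed within 1.5 times its value in most alternatives, and these are the others, each with the share of all genes past 1.5-fold under the same alternative. A minimum of 20 Slc12a1 counts left 2 members for MD against TAL-α in cortex instead of 4 (Egfr at 0.68 fell short, and Dusp6, at 2.83, had under 50 counts), with 23.9% of all genes. Removing the highest 5% of Scrublet scores left 1 (Dusp6) for TAL-β against TAL-α in medulla instead of 3, with 15.9%. Thresholds 1 count higher, and scaling without the 50 genes with the most counts, gave 2 instead of 1 for medulla against cortex in TAL-β, with 19.6% and 19.3%. Classes set on thinned counts gave 4 instead of 2 for TAL-β against TAL-α in cortex (18% of all genes against 9.59%). The members added there were Errfi1 and Erbb3, both lower in TAL-β than in TAL-α. The same classes gave 1 instead of 0 for TAL-γ (10.1% against 7.79%). For the regions they gave 2 instead of 1 in TAL-β (17.6% against 19.8%) and 1 instead of 2 in MD (23.8% against 27%).

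Without barcodes of other cell types, and without any proximal tubule count (added after the data had been seen), the count for the regions in MD was 0 instead of 2 (20.3% and 21.2% of all genes), and Egfr there turned from 0.52 to 2.35 and 2.06. Without the highest Scrublet scores it was 0.20. Thinned classes turned it to 1.47, Errfi1 in TAL-β against TAL-α from 1.33 to 0.55 in cortex and from 1.5 to 0.55 in medulla, and Errfi1 in MD against TAL-α of medulla from 1.62 to 0.54. In cortical MD against TAL-α Errfi1 went from 0.82 to 0.22. Thinned classes together with the removal (also added) gave 2 for the regions in TAL-β (14.2%) and 0 in MD (22.9%), where Egfr was at 5.38 and Errfi1 at 1.23. In both libraries the thinned classes held fewer TAL-β, TAL-γ and MD nuclei and more TAL-α nuclei than the classes used above. The cause of these turns was not tested. Over all alternatives, Dusp6 in TAL-β against TAL-α ranged from 1.65 to 3.20 in cortex and from 1.52 to 2.03 in medulla. Spry2 in the same classes ranged from 1.59 to 2.18 in cortex and from 1.17 to 1.68 in medulla. For MD against TAL-α of cortex, Egfr ranged from 0.13 to 0.68 and Erbb3 from 1.5 to 2.07. No paired analysis was possible because each group has 1 library and no test was run. Depth limits Spry4 everywhere and every member but Erbb4 in medullary MD. Intervals take each count as independent, and the spread between animals is not known.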
